A study of Mus musculus with 22 samples.

Results

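The BCL2 family is described here through 10 of its genes: the survival members Bcl2, Bcl2l1 and Mcl1, the pore-forming members Bax and Bak1, and the BH3-only members Bcl2l11, Bbc3, Pmaip1, Bid and Bad. They were chosen by gene name, and all 10 were found among the 24454 gene symbols of the raw count table. The 22 libraries each hold the polyadenylated RNA of 25 sorted VE-cadherin-positive cells from the aorta-gonad-mesonephros (AGM) region of C57BL/6 mouse embryos, which were neither treated nor genetically altered according to the labels. The surface levels of CD44 and Kit define 4 populations: CD44Neg (labelled endothelial cell, 10 libraries, of which 4 came from E9.5, 3 from E10 and 3 from E11 embryos), CD44LoKitNeg (labelled hemogenic endothelial cell, 6 libraries, with 1 from E9.5, 2 from E10 and 3 from E11), CD44LoKitPos (labelled pre-HSPC, for haematopoietic stem and progenitor cell, 3 libraries, with 1 from E9.5 and 2 from E10) and CD44High (labelled HSPC, 3 libraries, all at E11). Each stage carries its own numeric code in the sample descriptions, so the stage and whatever that code marks cannot be told apart. The labels do not say which libraries came from the same embryos, and p-values measure the spread between these libraries only.

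The BCL2 family sets the threshold for mitochondrial cell death. BCL2, BCL-XL (encoded by Bcl2l1) and MCL1 hold the pore-forming proteins BAX and BAK in check, and the BH3-only proteins, which include BIM (Bcl2l11), PUMA (Bbc3) and NOXA (Pmaip1), either occupy the survival proteins or activate BAX and BAK directly. Once BAX or BAK opens the outer mitochondrial membrane, cytochrome c is released and caspases are activated. MCL1 is a short-lived protein on which haematopoietic stem cells depend, and NOXA binds it preferentially. RNA levels do not measure the amount, the binding or the modification of any of these proteins.

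The libraries held 3912350 to 8657546 counts, and levels below are normalised CPM, that is, counts scaled to a common library size. Where no read was counted, the floor was set at 3 counts, or 0.348 to 0.816 CPM depending on the library, for counting error only. The endothelial markers (6 listed) summed to 2521 to 4725 CPM in CD44Neg, 3016 to 6645 in CD44LoKitNeg and 609 to 1424 in CD44LoKitPos. In CD44High they summed to 14.3 to 71.4 CPM, and Cdh5, the gene of the sorted VE-cadherin, was at 0 in all 3 libraries. All 8 macrophage markers listed were above the floor in CD44High by their median count and summed to 1697 to 4562 CPM, against 0 to 12.5 in CD44Neg, 0 to 52.97 in CD44LoKitNeg and 10.1 to 18.8 in CD44LoKitPos. In every library of the other populations C1qa, C1qb, C1qc and Adgre1 were at 0. Of 10 erythroid markers listed, 7 were above the floor in CD44High by their median count, Hba-a1 and Hba-a2 were at 0 in every library of all 4 populations, and the list summed to 96.9 to 368 CPM in CD44High, against 2.61 to 23.7 in CD44Neg, 21.5 to 61.3 in CD44LoKitNeg and 19.9 to 29.2 in CD44LoKitPos. The CD44High libraries are therefore named by their sort gate below, and the part of macrophage or erythroid RNA in any CD44High value was not tested. The 5 neural markers listed summed to 20.7 to 107 CPM in CD44Neg and 111 to 683 in CD44LoKitNeg, where Stmn2 alone held 111 to 683. The 6 mesenchyme markers listed summed to 0 to 27.2 CPM in CD44Neg and 2.03 to 76.2 in CD44LoKitNeg. Their part in the differences between these populations was not tested.

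The DNA in front of 3 members is shown because the differences between populations described below turn on them: Mcl1 and Bax, which differed between both endothelial populations, and Bid, whose 3 CD44High libraries lay above all others. The same held for Pmaip1, whose sequence is not shown. Each sequence holds the 250 bases before the RefSeq start (GRCm38.p6, 5′ to 3′ on the gene's strand), taken from chr3:95658471-95658720 on the plus strand for Mcl1, chr7:45466899-45467148 on the minus strand for Bax and chr6:120916825-120917074 on the minus strand for Bid. Capitals mark matches on either strand to the letters searched. These were the string TGTGGT for RUNX factors, the string AGATAA for GATA factors, the string CGGAAG for ETS factors, the string CACGTG, which is an E-box, and the CCAAT box.
Mcl1: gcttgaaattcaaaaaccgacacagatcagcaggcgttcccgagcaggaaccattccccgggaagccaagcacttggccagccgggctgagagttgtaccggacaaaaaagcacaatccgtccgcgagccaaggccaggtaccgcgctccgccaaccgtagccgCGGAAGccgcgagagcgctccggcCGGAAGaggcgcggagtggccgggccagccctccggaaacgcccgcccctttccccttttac
Bax: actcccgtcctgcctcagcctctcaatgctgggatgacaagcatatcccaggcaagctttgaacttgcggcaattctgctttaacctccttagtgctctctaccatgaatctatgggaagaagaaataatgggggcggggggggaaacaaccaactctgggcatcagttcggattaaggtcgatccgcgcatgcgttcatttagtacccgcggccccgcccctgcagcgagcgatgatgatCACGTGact
Bid: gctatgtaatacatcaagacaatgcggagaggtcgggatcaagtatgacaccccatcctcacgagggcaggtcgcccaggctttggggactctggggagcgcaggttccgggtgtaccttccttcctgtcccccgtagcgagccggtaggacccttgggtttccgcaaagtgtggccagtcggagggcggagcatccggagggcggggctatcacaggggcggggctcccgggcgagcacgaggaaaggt
The Mcl1 window holds 2 ETS-type matches, which begin 86 and 62 bases before the start, and the Bax window holds 1 E-box, which begins 9 bases before it. The Bid window holds none of the 5 letter strings. Of 32851 windows of the same length, 13.6% hold the ETS letters, 6.02% the E-box, 14.0% the RUNX letters, 9.99% the GATA letters and 33.8% CCAAT. A match is a description of the letters, not of a bound site.

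Mcl1 (chr3:95658788-95663176 in GENCODE M21 on the mm10 build) was the most abundant survival member and was higher in CD44LoKitNeg and CD44High than in CD44Neg. In CD44Neg its level ran from 41.1 to 124 CPM with a median of 82.9 (mean 85.4 ± 22.4, SD, n = 10). In CD44LoKitNeg it ran from 122 to 171 CPM with a median of 144 (mean 144 ± 17.8, SD, n = 6). Only the highest CD44Neg library reached into the CD44LoKitNeg range. The log2 difference was 0.76 (SE 0.19, edgeR adjusted p = 0.00704), and 10.2% of all 11022 genes tested passed the same threshold of 0.01 in that comparison. The call was lost without any of 7 single libraries (CD44Neg replicates 2, 3 and 8 and CD44LoKitNeg replicates 11, 12, 13 and 16), with the adjusted p reaching 0.0207. Counts from bulk libraries cannot tell fewer cells with a transcript from less RNA per cell.

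In CD44LoKitPos the Mcl1 level was 54.0, 89.8 and 84.9 CPM in the 3 libraries, within the CD44Neg range and below all 6 CD44LoKitNeg libraries. The log2 difference from CD44LoKitNeg was -0.91 (SE 0.26), with an edgeR adjusted p of 0.0242 that missed the threshold. In CD44High it was 155, 153 and 164 CPM, a spread of 5.93 CPM (SD) around a mean of 157. All 3 CD44High libraries exceeded every CD44Neg and CD44LoKitPos library, and they overlapped CD44LoKitNeg. The log2 difference from CD44Neg was 0.88 (SE 0.22, adjusted p = 0.00539), a call lost without CD44Neg replicate 8 or any 1 of the 3 CD44High libraries, where the adjusted p reached 0.0448. The log2 difference from CD44LoKitPos was 1.04 (SE 0.30, adjusted p = 0.0334). Across the 4 populations together, Mcl1 differed with an adjusted p of 0.00147.

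**Figure D1:**
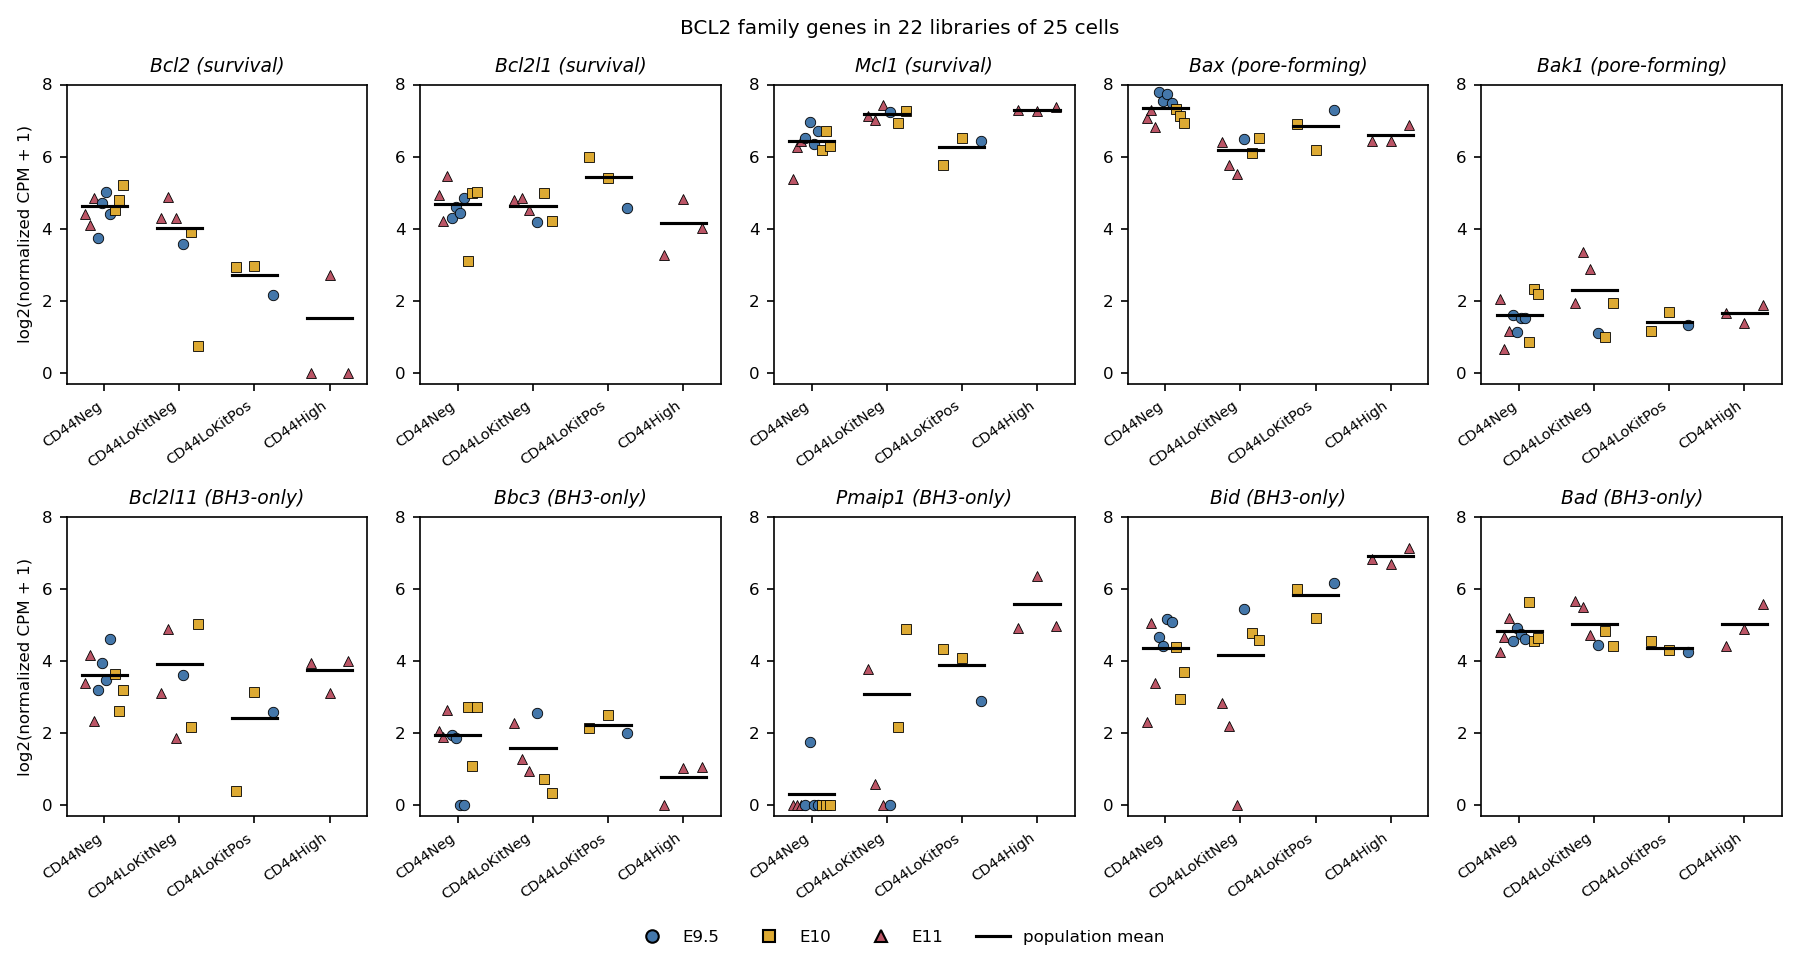
Level of each of the 10 members in the 22 libraries, as log2(normalised CPM + 1), with 1 point per library, coloured and shaped by stage, and a bar at each population mean. The 6 CD44LoKitNeg libraries lie below all 10 CD44Neg libraries for Bax, and the 3 CD44High libraries lie above every other library for Bid and Pmaip1.

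Bcl2 (chr1:106538178-106714274), the founding survival gene of the family, had its highest mean in CD44Neg and its lowest in CD44High. Its level in CD44Neg was 12.3 to 36.4 CPM with a median of 23.7 (mean 23.9 ± 7.14, SD, n = 10). In CD44LoKitNeg it was 18.6, 28.5 and 18.6 CPM at E11, 10.9 at E9.5, and 13.9 and 0.676 at E10. The E11 libraries sat inside the CD44Neg range, and the low mean of 15.2 ± 9.27 CPM (SD, n = 6) rested on the 3 earlier ones. CD44LoKitPos held 6.67, 6.80 and 3.47 CPM, below every CD44Neg library. CD44High held 0, 5.59 and 0 CPM, where 21 counts were found in the 1 library that had any. The log2 difference of CD44High from CD44Neg was -3.69 (SE 1.05, adjusted p = 0.0115) and from CD44LoKitNeg -3.04 (SE 1.03, adjusted p = 0.0316), so neither passed 0.01 by edgeR. DESeq2 called both (adjusted p = 6.10e-05 against CD44Neg), and limma voom called the first (adjusted p = 0.00355). Without the library that had counts, CD44High replicate 21, both passed, with adjusted p-values of 6.65e-05 and 1.50e-04, while the CD44High group was then at 0 throughout.

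Bcl2l1 (chr2:152780668-152831728), the gene of BCL-XL, passed the test in no comparison. It was at 7.64 to 43.1 CPM in CD44Neg with a median of 25.6, and at 17.3 to 30.5 CPM in CD44LoKitNeg with a median of 24.5. CD44LoKitPos held 62.0, 41.6 and 23.1 CPM and CD44High 8.71, 27.2 and 15.2 CPM. The E10 CD44LoKitPos library with 62.0 CPM was the highest of all 22, and every pair of populations overlapped. An adjusted p above the threshold does not show that the levels were alike.

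Levels of different genes were compared only after division by the length of the gene's merged exons. On that per-length scale Mcl1 was the highest of the 3 survival members in all 22 libraries. It made up 75.1% ± 8.40 (SD, n = 10) of their sum in CD44Neg, 85.8% ± 4.76 (n = 6) in CD44LoKitNeg, 69.2% ± 15.1 (n = 3) in CD44LoKitPos and 92.3% ± 4.49 (n = 3) in CD44High. The mean Bcl2 share was 8.11% in CD44Neg, 3.41% in CD44LoKitNeg, 1.91% in CD44LoKitPos and 0.397% in CD44High, the same order as its level. Bcl2l1 held its largest mean share, 28.9% ± 14.6 (SD, n = 3), in CD44LoKitPos. With the longest annotated transcript as the length instead, the Mcl1 shares were 65.5%, 78.6%, 57.2% and 87.3%, and in 1 CD44LoKitPos library Bcl2l1 was then higher than Mcl1. Shares were not tested.

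**Figure D2:**
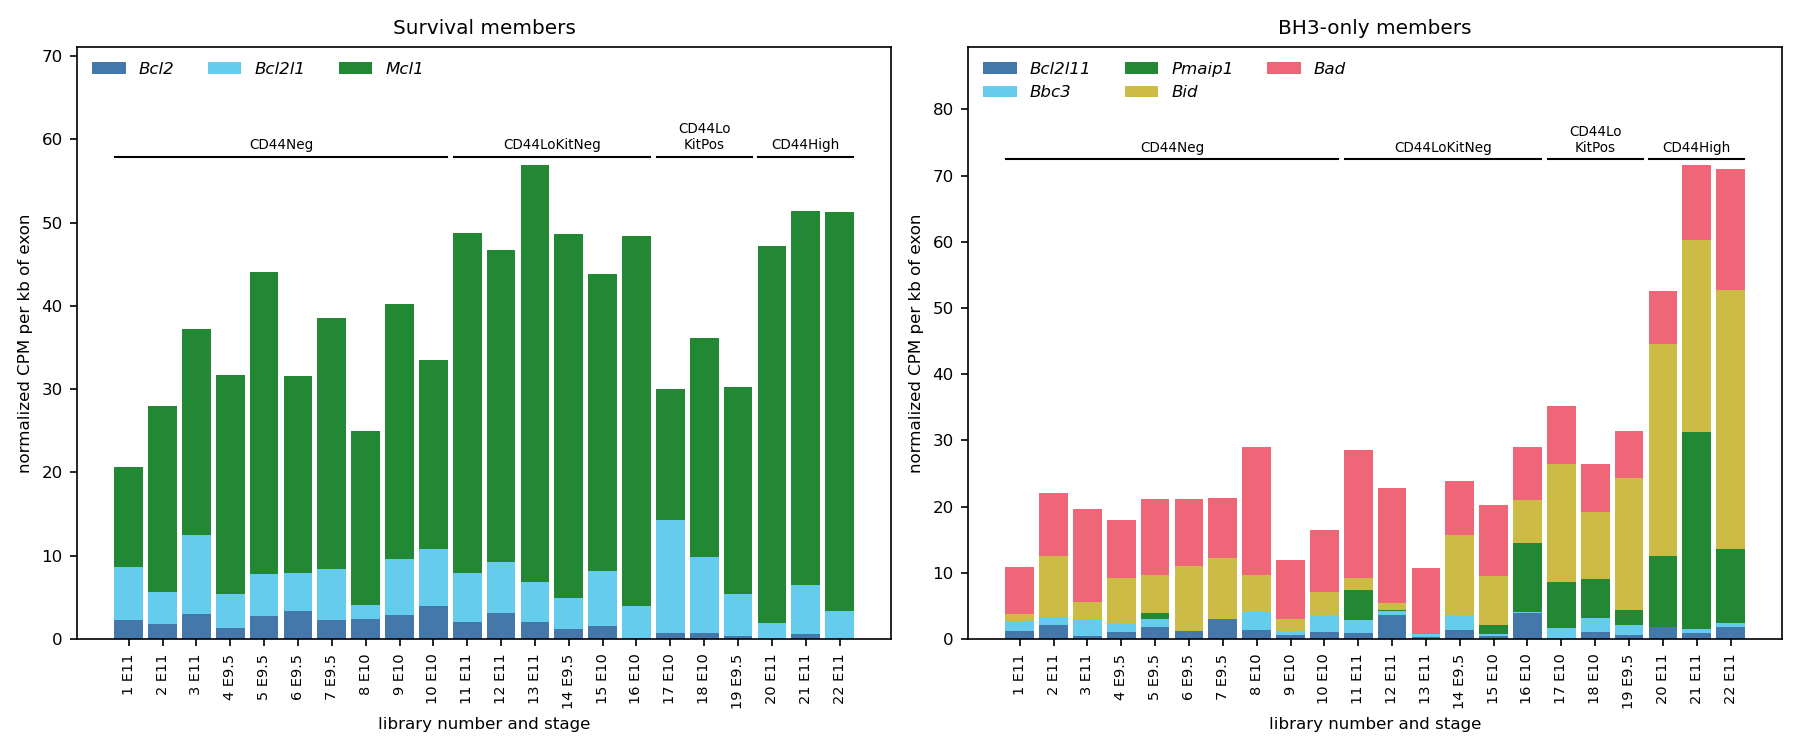
Normalised CPM per kilobase of merged exon, stacked for the 3 survival members (left) and the 5 BH3-only members (right), with 1 bar per library labelled by its number and stage and grouped by population. Mcl1 fills most of every bar on the left, while on the right Bid and Pmaip1 fill most of the 3 CD44High bars and Bad is the largest part of 9 of the 10 CD44Neg bars.

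Bax (chr7:45461697-45466898), which forms the pore in the outer mitochondrial membrane, was lower in CD44LoKitNeg than in CD44Neg. CD44Neg libraries held 112 to 222 CPM with a median of 157 (mean 162 ± 37.5, SD, n = 10). CD44LoKitNeg libraries held 44.8 to 90.0 CPM with a median of 75.5 (mean 71.4 ± 19.4, SD, n = 6). No CD44LoKitNeg library reached the lowest CD44Neg library, and Bax was the only 1 of the 9 members tested whose groups did not overlap in this comparison, where 5.58% of all genes tested did not. The log2 difference was -1.17 (SE 0.20, edgeR adjusted p = 4.15e-04), and it passed without any 1 of the 16 libraries, the highest adjusted p being 0.00154.

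The level of Bax in CD44LoKitPos was 118, 72.3 and 155 CPM, a range that reached into both endothelial populations. CD44High held 84.7, 86.0 and 116 CPM, also reaching into both, and its log2 difference from CD44Neg was -0.76 (SE 0.27, adjusted p = 0.0454). Over the 4 populations Bax differed with an adjusted p of 7.49e-04. Bak1 (chr17:27019810-27029009), the other pore-forming gene, was detected in every library but at only 3 to 72 counts, 0.584 to 9.31 CPM. On the per-length scale Bax made up at least 89.7% of the sum of both genes in each library. Bak1 passed no test, its exons share 614 bases with Ggnbp1 on the opposite strand, and SMART-Seq2 libraries do not mark the strand, so reads there cannot be told apart.

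Bid (chr6:120891930-120916853), the BH3-only protein that is cut and activated by caspase-8, had its highest levels in CD44High. CD44Neg libraries held 3.97 to 34.8 CPM with a median of 20.2 (mean 19.7 ± 11.4, SD, n = 10). CD44LoKitPos held 63.1, 35.8 and 70.7 CPM and CD44High 114, 103 and 139 CPM (mean 119 ± 18.5, SD, n = 3). The CD44LoKitPos libraries all lay above every CD44Neg library (35.8 against 34.8 CPM at the nearest), and the CD44High libraries lay above all 19 others. The log2 difference of CD44High from CD44Neg was 2.59 (SE 0.70, adjusted p = 0.0079). That call held without 10 of the 22 libraries left out singly and was lost without the other 12, where the adjusted p reached 0.0395. The macrophage and erythroid marker sums both separated the same 2 populations without overlap, and their part in the Bid level was not tested.

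Within CD44LoKitNeg the lowest Bid levels were those of the E11 libraries. It was 6.18, 3.62 and 0 CPM at E11, 42.7 at E9.5, and 26.7 and 23.1 at E10. The 3 E11 libraries lay below the 3 earlier ones without overlap, with a log2 difference of -3.19 (SE 1.19, edgeR p = 0.0246, adjusted p = 0.213) that did not pass. The blood marker sum was 3.75 to 16.1 CPM in the same E11 libraries and 83.8 to 263 in the earlier ones, and its part in the difference was not tested. Against all 6 CD44LoKitNeg libraries the CD44High level was higher by 2.80 on the log2 scale (SE 0.80, adjusted p = 0.0115), just outside the threshold. With only the E11 libraries of each population the difference was 5.05 (SE 1.10, adjusted p = 0.00633), and with the stage as a covariate it was 3.93 (SE 0.88, adjusted p = 0.00165). Exons of Bid share 628 bases with Bcl2l13 on the opposite strand. Bcl2l13 itself had mean levels of 38.5, 24.8, 37.2 and 46.2 CPM in CD44Neg, CD44LoKitNeg, CD44LoKitPos and CD44High and passed no test between them.

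Pmaip1 (chr18:66458533-66465565), the gene of NOXA, was close to absent from CD44Neg and had counts in every CD44LoKitPos and CD44High library. It had 0 counts in 9 of 10 CD44Neg libraries and 10 counts, 2.39 CPM, in the other, an E9.5 library. CD44LoKitNeg held 12.6, 0.518 and 0 CPM at E11, 0 at E9.5, and 3.52 and 28.4 at E10. CD44LoKitPos held 19.1, 16.01 and 6.48 CPM, and CD44High 29.3, 81.2 and 30.5 CPM. The CD44LoKitPos and CD44High libraries all exceeded every CD44Neg library, the CD44LoKitNeg libraries ran from 0 into the CD44LoKitPos range and above it, and CD44High was higher than all others.

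The edgeR adjusted p for Pmaip1 was 2.03e-04 for CD44High against CD44Neg, which passed without any 1 of the 22 libraries but not with E11 libraries alone (adjusted p = 0.0168), and 0.0069 for CD44LoKitPos against CD44Neg, which was lost without any of 12 of them (highest adjusted p 0.0346), with the stage as a covariate (adjusted p = 0.0253) and with E10 libraries alone (adjusted p = 0.0244). The fitted log2 differences of 7.63 (SE 1.38) and 5.87 (SE 1.34) depend on the prior count because CD44Neg is almost all 0. Within a stage, where the CD44Neg libraries were all at 0, the E11 CD44High mean was at least 76.5-fold higher than the floor of 3 counts per CD44Neg library, or at least 48.6-fold without replicate 21. At E10 the CD44LoKitPos mean was at least 27.1-fold higher. No bound is given for CD44LoKitNeg, whose mean rested mostly on 1 library at each of these stages, replicate 11 at E11 and replicate 16 at E10. Over all stages Pmaip1 in CD44LoKitNeg against CD44Neg did not pass the filter on low counts, and without the filter it was not called. Within a stage that difference had an edgeR adjusted p of 0.0612 at E10 and 0.114 at E11. CD44High did not differ from CD44LoKitNeg past the threshold (adjusted p = 0.169). The CD44High libraries, replicates 20, 21 and 22, had macrophage marker sums of 1697, 4562 and 4007 CPM and erythroid sums of 368, 96.9 and 359 CPM beside Pmaip1 levels of 29.3, 81.2 and 30.5 CPM. The part of macrophage or erythroid RNA in the Pmaip1 level was not tested.

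The other 3 BH3-only members passed no test between populations. Bad (chr19:6941861-6951899), which growth factor signalling holds inactive by phosphorylation, was the steadiest, with 17.9 to 49.6 CPM over the 22 libraries and population means of 19.7 to 32.0 CPM. Bcl2l11 (chr2:128126038-128162547), the gene of BIM, ranged from 0.31 to 31.7 CPM, and the lowest and highest libraries were both at E10, the first CD44LoKitPos and the second CD44LoKitNeg. Bbc3 (chr7:16308393-16318205), the gene of PUMA and a p53 target, had 0 to 42 counts per library, 0 to 5.63 CPM, and was at 0 in 2 CD44Neg libraries and 1 CD44High library. At this depth only large differences in Bbc3 could have been seen. Bad shares 524 exon bases with Gpr137 on the opposite strand.

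On the per-length scale the leading BH3-only member was not the same in each population. Bad was the highest in 9 of 10 CD44Neg libraries and 4 of 6 CD44LoKitNeg libraries, with mean shares of the 5-gene sum of 57.1% ± 11.6 (SD) and 58.6% ± 25.1. Bid was the highest in all 3 CD44LoKitPos libraries, with a mean share of 50.7% ± 12.7 (SD, n = 3), and in 2 of 3 CD44High libraries, with 52.3% ± 10.4, and Pmaip1 led in the other. With the longest annotated transcript as the length, Bid was the highest in all 3 CD44High libraries, and Bad in 10 of 10 CD44Neg and 5 of 6 CD44LoKitNeg libraries. On merged exons Bad held 25.0% ± 2.63 in CD44LoKitPos and 18.9% ± 5.85 in CD44High. No share of Bad in those 6 libraries reached its lowest share in CD44Neg, 42.8%.

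Between CD44LoKitNeg and CD44Neg, then, 2 of 9 members tested passed, Mcl1 upward and Bax downward, where 4.94% of all genes tested passed upward and 5.23% downward. The median log2 difference of the 9 was -0.07, against 0.01 for all genes tested. CD44High against CD44Neg gave 3 of 10 members, Mcl1, Pmaip1 and Bid, all upward, where 14.4% of 12949 genes passed and 7.14% did so upward. In that comparison 4 members did not overlap, these 3 and Bcl2, against 18.8% of all genes. CD44LoKitPos against CD44Neg gave 1 of 10, Pmaip1, with 3.48% of genes passing, and 3 members did not overlap (Bcl2, Pmaip1 and Bid) against 9.66% of genes.

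The other population pairs gave no member at the threshold. CD44LoKitPos against CD44LoKitNeg gave 0 of 10 by edgeR, with 3 members at an unadjusted p under 0.05 (27.2% of all genes) and 4.26% of all genes passing, while DESeq2 and limma voom each called 1, Mcl1, with 9.77% and 9.61% of genes. CD44High against CD44LoKitPos gave 0 of 10, with 2 at an unadjusted p under 0.05 (17.8% of genes) and 3.01% of genes passing, while DESeq2 called 1, Mcl1, with 5.53% of genes, and limma voom 0, with 3.75%. CD44High against CD44LoKitNeg gave 0 of 10, with 2 at an unadjusted p under 0.05 (37.5% of genes) and 16% of genes passing, while DESeq2 called 2, Bcl2 and Bid, with 20.6% of genes, and limma voom 2, Pmaip1 and Bid, with 17.8%. Over all 4 populations together 3 of 10 members differed (Mcl1, Bax and Pmaip1), where 22.1% of genes did. Comparisons that share a population share its libraries.

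**Figure D3:**
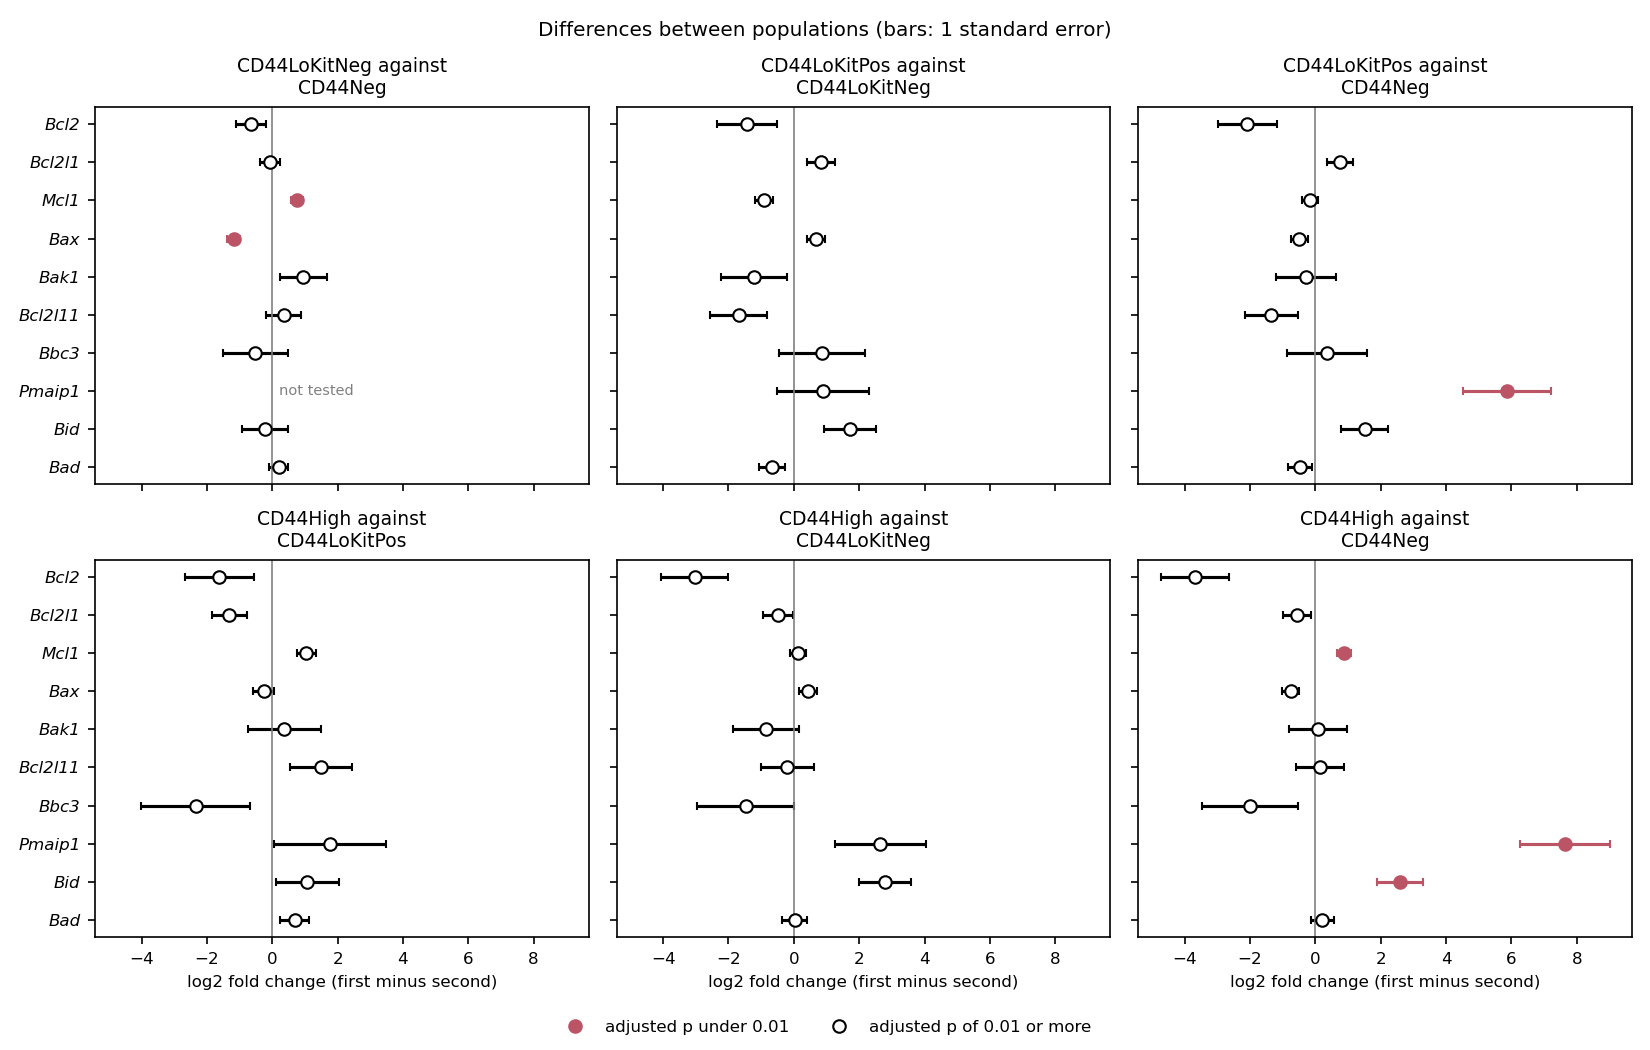
Log2 fold change of each member in the 6 comparisons between populations, first population minus second, with bars of 1 standard error and filled points where the edgeR adjusted p was under 0.01. Mcl1 and Bax are filled for CD44LoKitNeg against CD44Neg, and Mcl1, Pmaip1 and Bid for CD44High against CD44Neg.

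The populations were not collected at the same stages, so the members were also compared among libraries of 1 stage. At E11, with 3 libraries each, Mcl1 was at 41.1, 76.5 and 84.9 CPM in CD44Neg and at 139.5, 128 and 171 in CD44LoKitNeg. The log2 difference was 1.17 (SE 0.30, edgeR adjusted p = 0.0494). Bax at E11 was at 133, 155 and 112 CPM in CD44Neg and at 83.4, 53.04 and 44.8 in CD44LoKitNeg. Its log2 difference was -1.09 (SE 0.30, edgeR adjusted p = 0.0671). At E10 the differences kept their signs, at 0.77 (SE 0.33, adjusted p = 0.242) for Mcl1 and -0.75 (SE 0.31, adjusted p = 0.237) for Bax. None of these passed 0.01, where 1.06% of all genes passed at E11 and 0.0169% at E10. At E11 alone Bid was the only member to pass in CD44High against CD44LoKitNeg (1 of 10, with 15.5% of genes), and none passed in CD44High against CD44Neg (0 of 10, with 8.47% of genes and 4 members at an unadjusted p under 0.05, as were 30.6% of genes).

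Stage was compared within CD44Neg and within CD44LoKitNeg. In CD44Neg, Bax was at 222, 186, 213 and 178 CPM at E9.5, at 158, 139 and 121 at E10 and at 133, 155 and 112 at E11. All 4 E9.5 libraries lay above all 6 later ones. The share of all genes separated in this way is not given, here or for Bid below, so the separation cannot be weighed. The log2 difference of E11 from E9.5 was -0.56 (SE 0.18, edgeR p = 0.00848, adjusted p = 0.122) and that of E10 from E9.5 was -0.50 (SE 0.18, p = 0.0158, adjusted p = 0.207). No member passed in any of the 3 stage pairs: 0 of 9 in each, with 1, 1 and 0 members at an unadjusted p under 0.05 for E11 against E9.5, E10 against E9.5 and E11 against E10, where 17.1%, 15.2% and 8.68% of all genes were, and with 0.684%, 0.0178% and 0% of all genes passing. Bid in CD44Neg was at 24.5, 20.5, 34.8 and 32.9 CPM at E9.5, at 19.9, 6.71 and 12.05 at E10 and at 3.97, 32.5 and 9.45 at E11. Its E10 libraries lay below all 4 of E9.5, while those of E11 overlapped both, and the log2 difference from E9.5 was -1.11 (SE 0.64, adjusted p = 0.446) at E10 and -0.86 (SE 0.63, adjusted p = 0.566) at E11. Pmaip1 was not tested there because of its low counts.

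In CD44LoKitNeg no member passed between E11 and the earlier stages (0 of 10, with 0.173% of genes passing, and 1 at an unadjusted p under 0.05, as were 16.8% of genes). Of the 10 members, 2 did not overlap there, Bid, which was lower at E11, and Bcl2, which was higher, against 25.3% of all genes. The test of whether the CD44LoKitNeg difference from CD44Neg itself changed between E10 and E11 passed for none of the 9 members in which it could be estimated (0.00806% of genes passed), and 0 were at an unadjusted p under 0.05, as were 10.7% of genes. It could not be estimated for Pmaip1, which was at 0 in every CD44Neg library of both stages.

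The rest of the pathway was followed through 48 listed genes. Among the other family members, Bok, another pore-forming gene, fell in CD44LoKitNeg to 6.69 ± 5.44 CPM (SD, n = 6) from 59.3 ± 17.6 in CD44Neg (n = 10), a log2 difference of -3.14 (SE 0.57, adjusted p = 6.76e-04). It was at 19.7 ± 4.80 CPM in CD44LoKitPos and at 1.24 ± 2.15 in CD44High, where it was also lower than in CD44Neg (log2 difference -5.61, SE 1.12, adjusted p = 5.92e-04). Bik, a BH3-only gene, was at 16.6 ± 10.7 CPM in CD44Neg and at 0.372, 0 and 0.272 CPM on average in CD44LoKitNeg, CD44LoKitPos and CD44High. It fell in all 3, with edgeR adjusted p-values of 4.35e-04, 0.0029 and 0.00729. In each comparison it was the only 1 of 4 tested in its list to pass, where 10.2%, 3.48% and 14.4% of all genes passed.

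The Bcl2a1 genes, near-identical copies of a survival member known from blood cells, were at or near 0 in both endothelial populations. Bcl2a1b and Bcl2a1d rose in CD44High against CD44Neg (adjusted p = 1.55e-04 and 0.00671), at 2.57 to 59.6 CPM and 2.18 to 3.81 CPM in the 3 libraries, and counts of such copies are uncertain because reads can be split among them. Of the 6 other survival genes listed, 3 were tested there and these 2 passed, where 14.4% of all genes did. Of the 5 other BH3-type genes, 4 were tested in CD44High against CD44LoKitNeg and 1 passed, where 16% of all genes did. It was Bnip3, higher in CD44High at 198 ± 65.9 against 34.1 ± 19.5 CPM (log2 difference 2.54, SE 0.45, adjusted p = 1.63e-04). Bcl2l14, a less studied member, had 1.96 to 4.65 CPM in CD44LoKitPos and 0 in every CD44LoKitNeg library (adjusted p = 0.00952). It was the only 1 of 3 tested in its list to pass there, where 4.26% of all genes did. In CD44High it was at 0 in 2 of 3 libraries and at 5.06 CPM in the other. Bcl2l14 passed there against CD44Neg too (adjusted p = 0.0076), although the groups overlapped. That call rests on the CD44High library with counts and is not given without it, so no rise in CD44High is concluded.

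Of the 16 genes downstream of the mitochondrial step, 1 rose and 2 fell in CD44LoKitNeg against CD44Neg, where 4.94% of all genes rose and 5.23% fell, with a median log2 difference of -0.07 over the list against 0.01 over all genes. Casp6, an executioner caspase, rose (log2 difference 1.02, SE 0.21, adjusted p = 0.00197). Cycs, the gene of cytochrome c, fell (-1.21, SE 0.30, adjusted p = 0.00688), as did Htra2, a protease released with it (-1.52, SE 0.38, adjusted p = 0.00727). Between stages of CD44Neg, Cycs was lower at E11 than at E9.5 (-1.27, SE 0.20, adjusted p = 0.00488), and it was the only listed gene that passed in any of those stage pairs.

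Some members, among them Pmaip1 and Bbc3, are p53 targets, and 16 further p53 targets outside the 10 members were listed. Between CD44LoKitNeg and CD44Neg 1 of 14 tested passed, against 10.2% of all genes: Aen, which fell (-1.42, SE 0.35, adjusted p = 0.00768). Between CD44High and CD44Neg 2 of 16 rose and 2 fell, where 14.4% of all genes passed and 7.14% rose, with a median log2 difference of -0.27 over the list against -0.02 over all genes. Sesn1 rose (2.50, SE 0.42, adjusted p = 8.38e-05), while Plk2 (-4.20, SE 0.46, adjusted p = 3.74e-07) fell. Perp also rose (adjusted p = 3.19e-04), from 0 in all 16 endothelial libraries to between 0 and 109 CPM in CD44High. Phlda3 also fell (-3.65, SE 0.75, adjusted p = 8.27e-04) and is outside the rule for named genes in this comparison, being named after its values were seen. Plk2 was at 735, 558, 152 and 40.1 CPM on average in CD44Neg, CD44LoKitNeg, CD44LoKitPos and CD44High, and it also fell in CD44LoKitPos against both endothelial populations. In each of these 2 comparisons 2 of 16 targets passed, where 4.26% of all genes did against CD44LoKitNeg and 3.48% against CD44Neg. The other was Perp, which rose to 9.87 to 66.6 CPM in CD44LoKitPos (adjusted p = 0.00571 against CD44LoKitNeg and 0.00227 against CD44Neg).

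**Figure D4:**
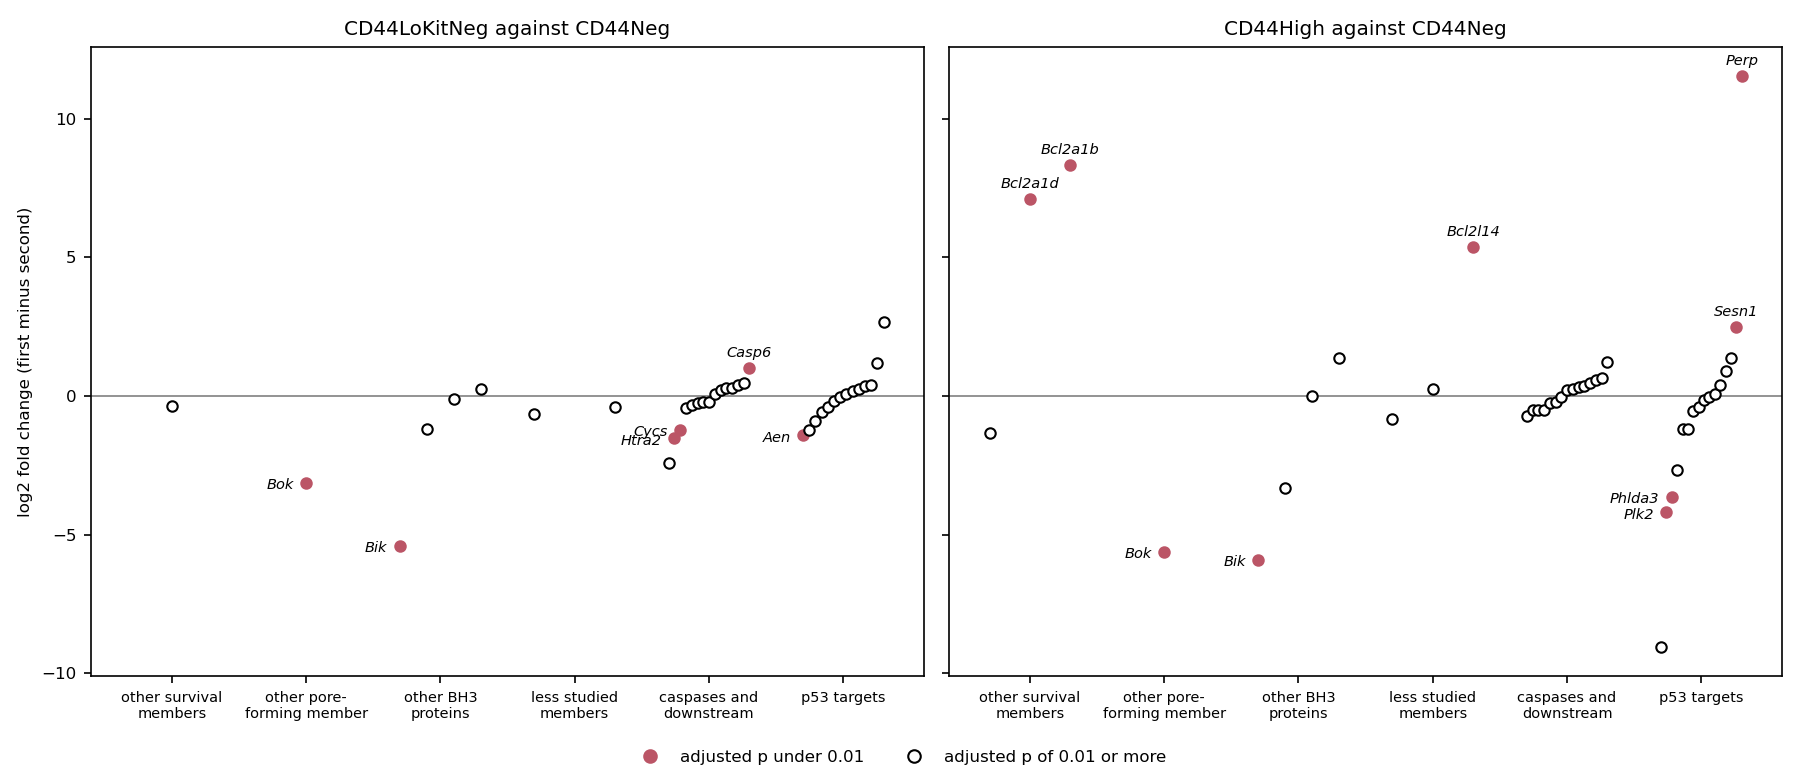
Log2 fold change of the listed pathway genes that were tested and are reported here, for CD44LoKitNeg against CD44Neg (left) and CD44High against CD44Neg (right), with 1 point per gene grouped by list and filled, named points where the edgeR adjusted p was under 0.01. Most points lie near 0, and the largest values, such as those of Perp and Bcl2a1b, are fitted against groups at or near 0 and are not bounds.

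Among all genes tested, those whose level followed a member most closely over the 22 libraries were found by Spearman's rho, which describes libraries that share populations and stages. Bcl2 was most like Emcn, an endothelial marker gene with a mean of 1116 CPM in CD44Neg and 2.39 in CD44High (rho 0.86), and Tulp3 (0.86). Bid was most like Arhgdib (0.93) and Snx5 (0.92), and Pmaip1 most like Plcb2 (0.97) and Arl11 (0.96). Bax was most like Ndufa8, a respiratory complex I subunit (0.95), and Psmc1, a proteasome cap subunit (0.93). Mcl1 was most like Fgd4 (0.81), which had its highest means in CD44LoKitNeg and CD44High. The coefficient for the closest gene was 0.76 for Bcl2l1 (Atrip, followed by Med15), 0.76 for Bak1 (Slfn10-ps and Irf2bp1), 0.72 for Bcl2l11 (Tmc4 and Cab39), 0.72 for Bbc3 (Dnajb2 and Vps4a) and 0.79 for Bad (Evl and Dip2b). Between members, Bcl2 ran against Pmaip1 and Bid (rho -0.71 for each), Mcl1 ran against Bax (-0.54), and Pmaip1 ran with Bid (0.53). Bcl2l1 ran against Bcl2l11 (-0.53) and Mcl1 against Bbc3 (-0.51), and no other pair of members was as strong.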

How the data were processed

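Raw read counts per gene symbol were deposited by the authors, who clipped adaptors with FASTX, mapped reads with RNA STAR and counted them with htseq-count. FastQC, HTSeq and the build mm10 stand in the submitters' processing notes, and the annotation, versions, filters and strand setting are not given in the sources used here. Each library held 25 cells, and all 22 libraries were used. The replicate numbers run from 1 to 22 over all populations.

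Counts were analysed in R 4.3.3 with edgeR 4.0.16: filterByExpr (minimum count 10, minimum total 15), TMM scaling and the quasi-likelihood F test over all genes that passed, with Benjamini-Hochberg adjustment and calls at an adjusted p under 0.01. CD44LoKitNeg against CD44Neg used their 16 libraries, the other pairs and the test over 4 populations used all 22, and stages used the 10 CD44Neg or the 6 CD44LoKitNeg libraries. Normalised CPM were computed with the TMM factors of the 22 libraries. The standard error is the size of the log2 fold change divided by the square root of F. Rn45s took 1.92% to 23.9% of the counts. No 2 libraries of a group and stage agreed within sampling noise (chi-square per degree of freedom 17.0 to 85.2 in 20 pairs). Only the first contrast of each design was run on simulated counts, with edgeR, DESeq2 and voom. The other contrasts, the single-stage and stage-covariate fits and the other scalings and filters were not. Alternatives were DESeq2 1.42.0, limma 3.58.1 voom, other scalings, no filter, an adjusted p under 0.05, Rn45s left out, the stage as a covariate, libraries of 1 stage, and leaving out each library in turn. Positions and exon lengths came from GENCODE M21, and promoter windows from RefSeq, where all 3 genes shown were found.

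All 10 members were named in every comparison. Genes of the pathway lists were named where they passed in a comparison, at most the 3 with the smallest adjusted p per list, and the 2 genes with the highest Spearman's rho (log2 CPM, prior count 2) were named for each member; a few genes that met these rules are not reported here. The members and lists were chosen with earlier results of these data known.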

Additional observations from a re-analysis of the deposited data

Results flagged for a closer look

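In CD44Neg, Pmaip1 was at 2.39 CPM in 1 E9.5 library (replicate 5, 10 counts) and at 0 in the other 9. It was picked out because its gap to the rest exceeded Dixon's 95% limit. With every other library at 0, any count in 1 library would have done so, and the usual chance rate of 1 in 20 does not apply.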

How the results depend on the processing

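No alternative reversed any of the 12 differences with an adjusted p under 0.05. Of the 94 other fold changes of members, 34 changed sign under at least 1 alternative. With libraries of E11 alone, the number of members called for CD44LoKitNeg against CD44Neg was 0, for CD44High against CD44Neg 0 and for CD44High against CD44LoKitNeg 1 (Bid). With E10 alone it was 0 for CD44LoKitNeg against CD44Neg and 0 for CD44LoKitPos against CD44Neg. With the stage as a covariate it was 0 for CD44LoKitPos against CD44Neg and 1 (Bid) for CD44High against CD44LoKitNeg. DESeq2 called 1 member (Mcl1) in CD44LoKitPos against CD44LoKitNeg and 1 in CD44High against CD44LoKitPos, 2 (Bcl2 and Bid) in CD44High against CD44LoKitNeg and 5 over the 4 populations, where it called 28.9% of all genes. Limma voom called 1 (Mcl1) in CD44LoKitPos against CD44LoKitNeg, 2 (Pmaip1 and Bid) in CD44High against CD44LoKitNeg and 5 over the 4 populations, with 26.8% of genes. At an adjusted p under 0.05 the counts were as with DESeq2 in those 4 comparisons, 1, 1, 2 and 5 (with 12.5%, 6.05%, 26.8% and 36.2% of genes), and 5 in CD44High against CD44Neg (22.5%). The cause was not tested, although stage-restricted fits hold fewer libraries.

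Leaving out single libraries gave 1 to 2 members for CD44LoKitNeg against CD44Neg, 0 to 1 for CD44LoKitPos against CD44Neg, 0 to 1 for CD44LoKitPos against CD44LoKitNeg, 0 to 1 for CD44High against CD44LoKitPos, 0 to 1 for CD44High against CD44LoKitNeg, 1 to 4 for CD44High against CD44Neg and 3 to 4 over the 4 populations. Without CD44High replicate 21, Bcl2 passed in CD44High against each other population. No paired analysis was possible because no replicate number occurs in more than 1 population.

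Counts over all genes moved more. DESeq2 called 1746 genes against 1121 for CD44LoKitNeg against CD44Neg, 1265 against 552 for CD44LoKitPos against CD44LoKitNeg and 716 against 390 for CD44High against CD44LoKitPos, and 6.4% against 3.48% of genes for CD44LoKitPos against CD44Neg. Voom called 1244 and 729 in CD44LoKitPos against CD44LoKitNeg and against CD44Neg. With the stage as a covariate CD44LoKitPos against CD44LoKitNeg gave 366. E11 alone gave 126 for CD44LoKitNeg against CD44Neg and 1011 against 1864 for CD44High against CD44Neg, and E10 alone gave 2 for CD44LoKitNeg against CD44Neg, 141 for CD44LoKitPos against CD44LoKitNeg and 258 for CD44LoKitPos against CD44Neg. With DESeq2 size factors the median log2 difference over all genes moved from -0.02 to -0.16 for CD44LoKitPos against CD44LoKitNeg, and the share of called genes that were higher from 59.8% to 44.4%, while no member was called under either scaling. The stage comparisons within a population, with 0 to 77 genes, gave 4 to 558 by DESeq2, voom or without the filter. The interaction, with 1 gene, gave 121 by DESeq2 and 190 without the filter. Members with few counts (Bak1, Bbc3, and Pmaip1 in CD44Neg) and groups of 3 libraries limit what could be seen.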
